A study of Mus musculus with 21 samples.

Results

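The genes described here are the organic ion, bile acid and ATP-binding cassette (ABC) transporters of the mouse liver. Members were the protein-coding genes whose symbols belong to the Slco, Slc22a, Slc10a, Slc47a, Slc51, Abcb, Abcc and Abcg families, and 76 of the 52636 gene IDs in the count table met that rule, of which 75 are described. By their usual direction of transport, 37 of these were placed in an uptake class, 22 in an export class and 16 in neither. Messenger RNA was measured by RNA sequencing in whole livers of 21 wild-type mice. Of these, 5 were fed normal chow and collected after 8 weeks (labelled week 0), 8 were collected after 8 weeks on CDA-HFD and 8 after 16 weeks on CDA-HFD. CDA-HFD is the usual abbreviation of a choline-deficient, amino acid-defined, high-fat diet, which is fed to mice as a model of steatohepatitis with fibrosis. Strain, sex and age are not given in the labels, and the chow livers match the CDA-HFD livers in feeding time at 8 weeks alone.

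Hepatocytes take up bile acids, drugs and other organic ions from sinusoidal blood through solute carriers of the SLC10, SLCO and SLC22 families, which use ion gradients or exchange. ABC transporters use ATP to move bile acids, conjugates, phospholipid and sterols across the canalicular membrane into bile, and a further set at the basolateral membrane returns conjugates to the blood. In cholestasis, bile acid sensing nuclear receptors are known to lower uptake carriers and to raise basolateral efflux pumps.

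The libraries held 29037525 to 45868842 counts at 8 weeks of CDA-HFD, 35254088 to 48901145 at 16 weeks and 33522456 to 42586342 on chow. Values below are CPM, the usual unit of counts scaled to library size, on sizes adjusted by TMM, a normalization that centres most genes. The TMM factor of replicate 3 of the 8-week group was 0.496, against 0.884 to 1.17 in the other 7 livers of that group. Transcripts of hepatocytes (7 of 8 listed genes, albumin among them) summed to 96122 to 339590 CPM at 8 weeks, with the highest sum in replicate 3, to 72926 to 104500 CPM at 16 weeks, and to 102280 to 145810 CPM on chow. Of these 7 genes, 1 rose and 4 fell at 8 weeks and 0 rose and 5 fell at 16 weeks, with median log2 changes of −0.44 and −0.88. Macrophage markers (7 genes) summed to 925 to 6606 CPM at 8 weeks and to 2448 to 4465 CPM at 16 weeks, against 193 to 276 CPM on chow. Bile duct markers (7 genes) summed to 95.01 to 480.4 CPM at 8 weeks and to 453 to 1511 CPM at 16 weeks, against 50.9 to 85.2 CPM on chow. Some livers also held transcripts of other tissues. In the 8-week group, squamous epithelium markers summed to 1745 CPM and skeletal muscle markers to 2154 CPM in replicate 3, and exocrine pancreas markers to 8115 CPM in replicate 4. Muscle markers also reached 317 CPM in a 16-week liver, and 298 CPM in chow replicate 5, against 0.666 to 10.1 CPM in the other chow livers. Kidney tubule markers summed to at most 0.139 CPM in any liver. The part of these shifts in the results below was not tested, and in whole tissue fewer cells of a type and less RNA per cell cannot be told apart.

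Of the 75 members, 54 passed the filter on low counts, 22 of them in the uptake class, 19 in the export class and 13 in neither. At 8 weeks of CDA-HFD against chow, 14 members were higher and 20 lower at an adjusted p under 0.05 in edgeR's quasi-likelihood test, with the Benjamini-Hochberg adjustment over all 17104 genes tested. Over all genes tested, 30.8% were called higher and 20.5% lower in that comparison, 51.3% in all. At 16 weeks against chow, 16 members were higher and 22 lower, while 29.4% of all genes were called higher and 22.5% lower, 51.9% in all. The median log2 change of the tested members was −0.18 at 8 weeks, where the median of all genes tested was 0.16. At 16 weeks the medians were −0.26 for the members and 0.03 for all genes. At 8 weeks 8 members lay above the whole range of the chow livers and 15 below it, against 15.3% and 14.8% of all genes. At 16 weeks these counts were 14 and 22, against 27.2% and 23.3% of all genes. When 8-week replicates 3, 4 and 5, which held transcripts of other tissues, were left out, 13 members were higher and 19 lower at 8 weeks. With the 5 libraries that held most squamous transcripts left out (8-week replicates 3 and 6, 16-week replicates 1, 4 and 7), 14 were higher and 21 lower at 8 weeks, and 16 higher and 25 lower at 16 weeks. Scaling by total counts alone moved the median of all genes by 0.12 at 8 weeks and by 0.53 at 16 weeks. Then 17 members were higher and 14 lower at 8 weeks, and 20 higher and 12 lower at 16 weeks.

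Several sinusoidal uptake carriers of hepatocytes were lower on CDA-HFD. Of 8 listed carriers, all of which passed the filter, 4 fell and 0 rose at 8 weeks, and 5 fell and 0 rose at 16 weeks, with median log2 changes of −0.65 and −0.70. Over all genes tested, 20.5% fell and 30.8% rose at 8 weeks, and 22.5% fell and 29.4% rose at 16 weeks. Slc10a1 (ENSMUSG00000021135, chromosome 12, 80953183 to 80968705 on GRCm38), the sodium-dependent carrier that takes up most conjugated bile acids, had a lowest, median and highest value of 218, 310.1 and 491 CPM at 8 weeks and of 94.6, 173 and 238 CPM at 16 weeks, against 519, 594, 518, 685 and 511 CPM in the 5 chow livers. Every CDA-HFD liver lay below every chow liver. The log2 change of Slc10a1 was −0.75 ± 0.22 (SE, adjusted p = 0.00848) at 8 weeks and −1.71 ± 0.22 (adjusted p = 1.48e-06) at 16 weeks.

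Slco1a1 (chromosome 6, 141907282 to 141946962), a sodium-independent organic anion carrier that is most abundant in livers of male mice, had a lowest, median and highest value of 89.3, 222 and 391 CPM at 8 weeks and of 6.90, 64.0 and 207 CPM at 16 weeks, against 496, 715, 654, 725 and 557 CPM on chow. The 16-week livers thus spread over a wide range below chow, with replicates 1, 4 and 7 at 196, 134 and 207 CPM and the other 5 livers at or below 78.8 CPM. Replicates 1, 4 and 7 are also the 16-week livers with most squamous transcripts. They had the highest hepatocyte sums of that group as well (104500, 97516 and 96003 CPM). Their bile duct sums (453, 588 and 644 CPM) and macrophage sums (2448, 3345 and 2881 CPM) were its lowest. Fits without the 5 libraries with squamous transcripts leave these livers out. The part of any of these markers in the spread of Slco1a1 was not tested. The log2 change was −1.47 ± 0.54 at 8 weeks (adjusted p = 0.0275) and −2.78 ± 0.54 at 16 weeks (adjusted p = 0.000213). At 8 weeks the call was lost without chow replicate 2 (−1.42, adjusted p = 0.0519) or 4 (−1.41, adjusted p = 0.054).

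Slco2b1, a broad organic anion carrier, had 102, 132 and 189 CPM (lowest, median, highest) at 8 weeks and 66.7, 106 and 124 CPM at 16 weeks, against 266, 258, 247, 269 and 241 CPM on chow. Neither CDA-HFD group overlapped the chow livers, and its log2 changes were −0.86 (adjusted p = 0.000182) and −1.33 (adjusted p = 5.99e-07). Slc22a5, the carnitine carrier, averaged 14.4 ± 5.23 CPM at 8 weeks and 14.4 ± 1.996 CPM at 16 weeks (SD, n = 8 each), against 24.1 ± 1.29 CPM on chow (n = 5). It fell at both times (log2 changes −0.74 and −0.74, adjusted p = 0.0092 and 0.00766), but not with scaling by total counts alone (−0.54 and −0.21, adjusted p = 0.14 and 0.566). Of the 50-base stretches of its transcript, 27.1% also occur in other genes, mostly in Slc22a21. Slco1b2, the main hepatic carrier of this family and the mouse counterpart of the human statin carriers, ranged from 129 to 1131 CPM at 8 weeks and from 309.6 to 969.7 CPM at 16 weeks, against 902 to 1300.0 CPM on chow. Its log2 changes of −0.56 and −0.64 missed the threshold at 8 and 16 weeks (adjusted p = 0.174 and 0.121). The lowest value was that of 8-week replicate 3. At 16 weeks Slco1b2 passed without 8-week replicates 3, 4 and 5 (−0.65, adjusted p = 0.0159), without the 5 libraries with squamous transcripts (−0.88, adjusted p = 0.00613) and with the 2 groups fitted alone (−0.66, adjusted p = 0.0234), and with total-count scaling it was at −0.13 (adjusted p = 0.797).

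Slc22a7, a carrier of organic anions and nucleotides, averaged 57.6 ± 26.1 CPM at 8 weeks, against 32.2 ± 16.3 CPM on chow (log2 change 0.84, adjusted p = 0.0591), a comparison that passed without chow replicate 3 (1.05, adjusted p = 0.0345) or 8-week replicate 6 (0.93, adjusted p = 0.0358) or 7 (0.91, adjusted p = 0.0462), with total-count scaling (0.85, adjusted p = 0.0315) and with DESeq2 (0.81, adjusted p = 0.0472). Without 8-week replicates 3, 4 and 5 it was at 0.38 (adjusted p = 0.383). At 16 weeks it averaged 21.4 ± 7.68 CPM (log2 change −0.59 against chow, adjusted p = 0.168), or −0.82 without chow replicate 1 (adjusted p = 0.0378) and −0.37 without chow replicate 3 (adjusted p = 0.432). Without the 5 libraries with squamous transcripts that change was −0.99 (adjusted p = 0.0154), and with total-count scaling −0.09 (adjusted p = 0.828). Slc22a3, a low-affinity monoamine carrier, averaged 3.09 ± 0.606 CPM at 8 weeks and 3.25 ± 0.434 CPM at 16 weeks, against 3.52 ± 0.472 CPM on chow, and was called at neither time (adjusted p = 0.298 and 0.559). Exons of Slc22a3 share 420 bases (9.31% of its length) with Plg on the opposite strand. The strand setting used for counting is unknown here. Slco1a4, an anion carrier that also handles cardiac glycosides, was called lower at 16 weeks (log2 change −0.67, adjusted p = 0.0253), but its chow livers ranged from 29.3 to 111 CPM and without chow replicate 1, the highest, the change was −0.28 (adjusted p = 0.267).

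**Figure D1:**
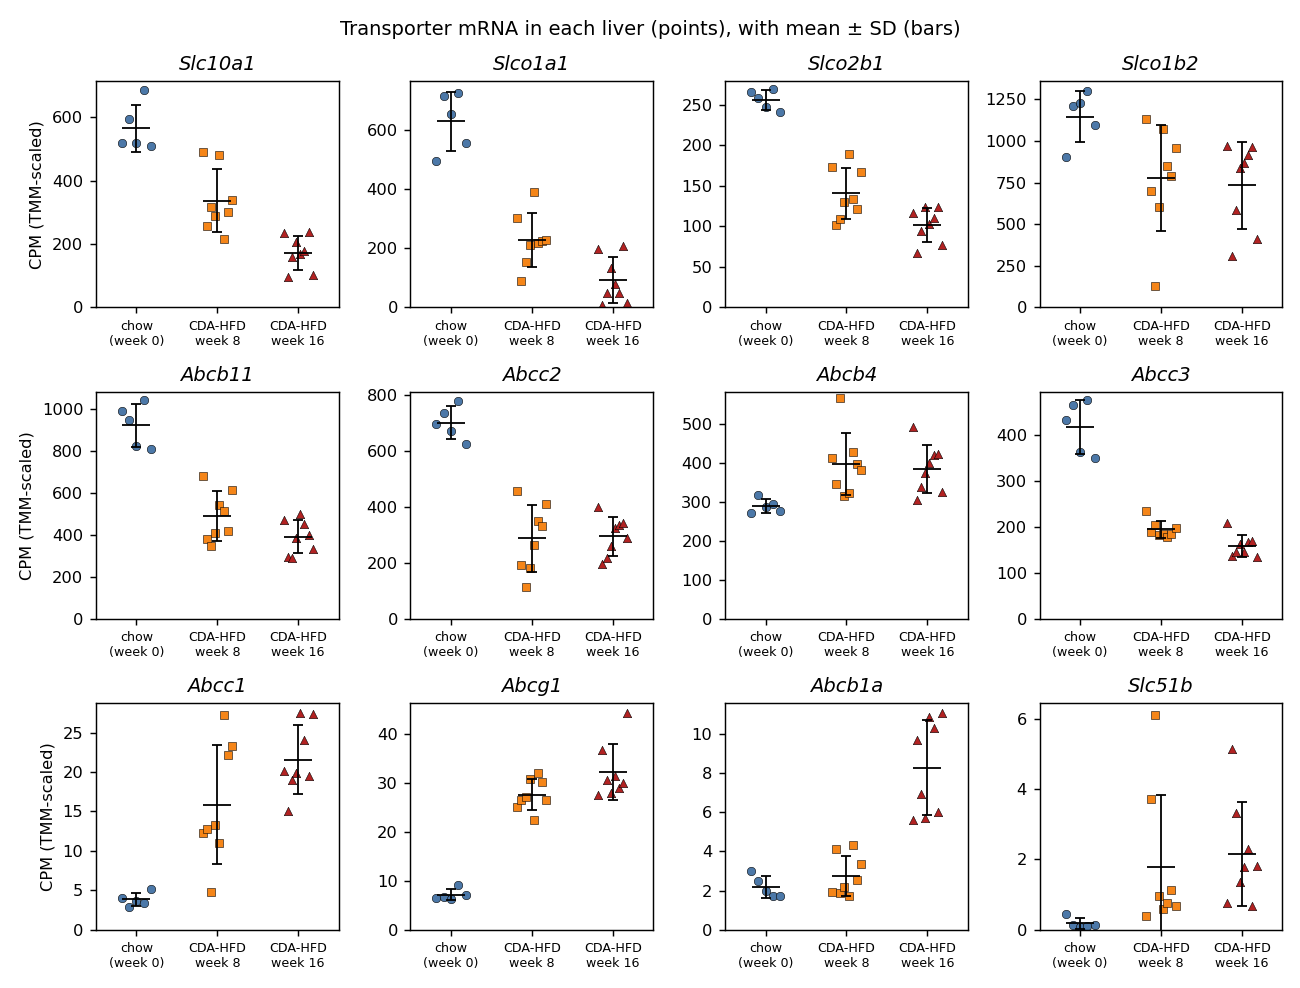
CPM of 12 transporters (vertical axes, linear from 0) in each liver by diet and labelled week (horizontal axes), with points for livers and bars for the mean ± SD of 5, 8 and 8 livers. Slc10a1, Slco2b1, Abcb11, Abcc2 and Abcc3 of all CDA-HFD livers lie below all chow livers, Abcg1 lies above them, and Abcb1a is set apart at 16 weeks alone.

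Canalicular exporters were also mostly lower, with a phospholipid floppase and a drug pump as exceptions. Of 8 listed exporters, 5 fell and 1 rose at 8 weeks, and 6 fell and 2 rose at 16 weeks, with median log2 changes of −0.83 and −1.05. Among all genes tested 20.5% fell and 30.8% rose at 8 weeks, and 22.5% fell and 29.4% rose at 16 weeks. Abcb11 (ENSMUSG00000027048, chromosome 2, 69238282 to 69342616), the bile salt export pump, had 346, 464 and 679 CPM (lowest, median, highest) at 8 weeks and 289, 391 and 499.9 CPM at 16 weeks, against 988, 948, 823, 1041 and 806 CPM on chow. Its CDA-HFD and chow livers did not overlap at either time. The log2 change was −0.92 ± 0.17 (adjusted p = 0.000162) at 8 weeks and −1.24 ± 0.17 (adjusted p = 2.94e-06) at 16 weeks.

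Abcc2, which exports bilirubin and glutathione conjugates into bile, had 113, 297 and 458 CPM (lowest, median, highest) at 8 weeks and 194, 306 and 399.7 CPM at 16 weeks, against 697, 738, 672, 778 and 626 CPM on chow. All CDA-HFD livers lay below all chow livers. The log2 changes were −1.29 (adjusted p = 0.000281) and −1.25 (adjusted p = 0.00026), and the change at 16 weeks with total-count scaling was −0.72 (adjusted p = 0.0513). Abcg5 and Abcg8, which pair as the biliary sterol exporter, lie head to head on chromosome 17 and fell together. Abcg5 averaged 33.5 ± 14.7 CPM at 8 weeks and 26.1 ± 3.80 CPM at 16 weeks, against 74.9 ± 40.0 CPM on chow (log2 changes −1.16 and −1.52, adjusted p = 0.00213 and 0.00012). Abcg8 averaged 62.4 ± 26.3 and 46.4 ± 7.91 CPM at these times, against 128 ± 70.1 CPM on chow (log2 changes −1.03 and −1.46, adjusted p = 0.00358 and 0.000111). Chow replicate 1 held 145 CPM of Abcg5 and 251 CPM of Abcg8, against 47.1 to 67.4 and 73.5 to 105 CPM in the other chow livers, and without it the changes at 8 weeks were −0.77 and −0.64 and stayed past the threshold. Exons of the pair share 82 bases on opposite strands.

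Abcg2, a pump of urate, porphyrins and many drugs, averaged 101 ± 28.2 CPM at 8 weeks and 91.9 ± 16.3 CPM at 16 weeks, against 168 ± 29.1 CPM on chow (log2 changes −0.74 and −0.87, adjusted p = 0.00588 and 0.00129). Slc47a1, the proton-coupled extruder of organic cations, fell at 16 weeks alone (log2 change −0.77, adjusted p = 0.0113), to 57.5 ± 13.6 CPM, against 97.8 ± 9.61 CPM on chow. Its 73.2 ± 24.5 CPM at 8 weeks was not called (log2 change −0.42, adjusted p = 0.154). With total-count scaling the falls of Abcg2 were −0.55 and −0.35 (adjusted p = 0.102 and 0.282) and that of Slc47a1 at 16 weeks was −0.25 (adjusted p = 0.502).

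Abcb4, the floppase that delivers phosphatidylcholine to bile, was the canalicular gene that rose at both times. It had 316, 389.9 and 567 CPM (lowest, median, highest) at 8 weeks and 304, 388 and 492.7 CPM at 16 weeks, against 272, 319, 286, 295 and 276 CPM on chow. The ranges touched, since 1 chow liver exceeded the lowest CDA-HFD liver of each group. The log2 changes were 0.45 ± 0.14 (adjusted p = 0.0112) and 0.41 ± 0.14 (adjusted p = 0.0184), and the change at 8 weeks was 0.38 with the 2 groups fitted alone (adjusted p = 0.0597). Its neighbours on chromosome 5 are the multidrug pumps Abcb1a and Abcb1b. Abcb1a had 1.72, 2.35 and 4.31 CPM (lowest, median, highest) at 8 weeks and 5.62, 8.31 and 11.1 CPM at 16 weeks, against 3.02, 2.495, 1.99, 1.74 and 1.73 CPM on chow. The 16-week livers lay above all livers of both other groups, and the log2 change against chow was 0.34 (adjusted p = 0.277) at 8 weeks and 1.92 ± 0.27 (adjusted p = 5.16e-06) at 16 weeks. Abcb1b averaged 2.27 ± 1.44 CPM at 8 weeks, against 4.08 ± 0.562 CPM on chow (log2 change −0.83, adjusted p = 0.0227), a call that was lost without chow replicate 3 (−0.76, adjusted p = 0.0566), without 8-week replicates 3, 4 and 5 (−0.53, adjusted p = 0.114) and with total-count scaling (−0.63, adjusted p = 0.154). At 16 weeks Abcb1b averaged 3.34 ± 0.544 CPM (log2 change −0.29, adjusted p = 0.434). Of the 50-base stretches of Abcb1a and Abcb1b, 17% and 18.3% occur in other genes, mostly in each other, so that their counts may be split.

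**Figure D2:**
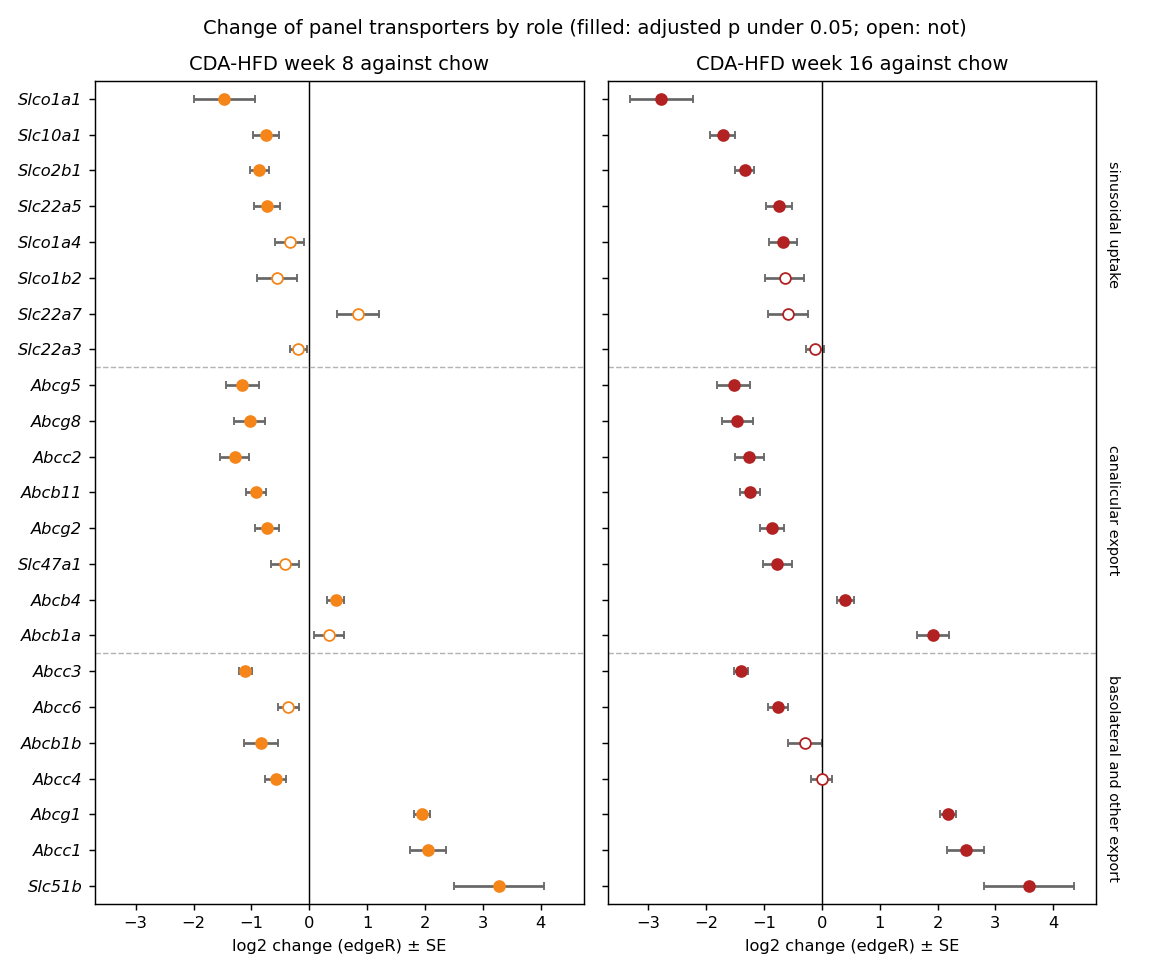
Fitted log2 changes (horizontal axes, ± SE) of the 23 tested members of the fixed panel, by role from top to bottom, at 8 weeks (left) and 16 weeks (right) of CDA-HFD against chow; filled points passed an adjusted p of 0.05. Most uptake carriers and canalicular exporters lie left of 0, whereas Abcb1a at 16 weeks, Abcg1, Abcc1 and Slc51b lie right of 0.

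Basolateral exporters and lipid exporters of other cells went both ways. Of 8 listed genes 7 passed the filter, of which 3 rose and 3 fell at 8 weeks, and 3 rose and 2 fell at 16 weeks. The shares of all genes tested were 30.8% higher and 20.5% lower at 8 weeks, and 29.4% higher and 22.5% lower at 16 weeks. This list is of basolateral and other export, and holds the multidrug pump Abcb1b, described above, under other export. Abcb1b is among the 3 that fell at 8 weeks, with a call that was lost in some fits. Abcc3, which exports glucuronides and bile acids to blood, had 178, 187 and 234 CPM (lowest, median, highest) at 8 weeks and 134, 155 and 209 CPM at 16 weeks, against 433, 465.9, 363, 476 and 350.3 CPM on chow. No CDA-HFD liver reached the lowest chow liver at either time. The log2 changes were −1.11 ± 0.11 (adjusted p = 1.79e-07) and −1.40 ± 0.11 (adjusted p = 4.39e-09). Abcc4, a pump of bile acids with glutathione and of cyclic nucleotides, averaged 5.93 ± 1.43 CPM at 8 weeks, against 8.91 ± 0.925 CPM on chow (log2 change −0.58, adjusted p = 0.0119, or −0.39 with total-count scaling, adjusted p = 0.241). At 16 weeks it averaged 8.89 ± 2.31 CPM and was not called (log2 change 0.00, adjusted p = 0.995). Abcc6, a hepatocyte transporter needed for ATP release, fell at 16 weeks alone (131 ± 31.2 CPM against 221 ± 25.7 CPM on chow, log2 change −0.75, adjusted p = 0.000983), or by −0.22 with total-count scaling (adjusted p = 0.376). At 8 weeks it averaged 172 ± 40.6 CPM (log2 change −0.36, adjusted p = 0.087), which passed without 8-week replicate 1 (−0.44, adjusted p = 0.0352) and with DESeq2 (−0.40, adjusted p = 0.0386).

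Abcc1, a pump of leukotriene C4 and glutathione conjugates found in many cell types, had 4.73, 13.1 and 27.2 CPM (lowest, median, highest) at 8 weeks and 15.1, 19.98 and 27.5 CPM at 16 weeks, against 4.08, 2.93, 3.64, 3.42 and 5.18 CPM on chow. The 8-week range met the chow range in replicate 3 alone. The log2 changes were 2.04 ± 0.31 (adjusted p = 1.85e-05) and 2.49 ± 0.31 (adjusted p = 1.2e-06). Abcg1, a cholesterol exporter of macrophages and other cells, had 22.5, 26.8 and 31.9 CPM (lowest, median, highest) at 8 weeks and 27.5, 30.3 and 44.3 CPM at 16 weeks, against 6.55, 6.71, 6.21, 9.07 and 7.04 CPM on chow. All CDA-HFD livers lay above all chow livers, with log2 changes of 1.95 ± 0.14 (adjusted p = 2.33e-09) and 2.18 ± 0.14 (adjusted p = 4.67e-10). The macrophage markers, of which 7 of 7 rose at both times, moved in the same direction as Abcg1 and Abcc1 between the groups. By liver, 8-week replicate 3 had the highest macrophage sum (6606 CPM) and the lowest Abcc1 of the CDA-HFD livers (4.73 CPM). The part of the macrophage markers in these rises was not tested.

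Slc51b, the beta subunit of the basolateral organic solute transporter, rose at a low level. It had 0.383, 0.861 and 6.12 CPM (lowest, median, highest) at 8 weeks and 0.681, 1.81 and 5.13 CPM at 16 weeks, against 0.441, 0.143, 0.0675, 0.116 and 0.137 CPM on chow. The 8-week range met that of chow, where 28 counts were found in all 5 livers together, and the 16-week range did not. The log2 changes were 3.28 ± 0.77 (adjusted p = 0.00161) and 3.58 ± 0.77 (adjusted p = 0.000556). Exons of Slc51b share 91 bases (12.8% of its length) with Rasl12 on the opposite strand, and the strand setting used for counting is unknown here. The alpha subunit Slc51a, with which Slc51b must pair to work, had 1 count in all 21 livers. Its 0 counts at 8 weeks and on chow allow a level of up to 0.0108 and 0.0184 CPM, from 3 counts over the group and for counting error only. The bile duct markers were higher than on chow in the same livers. Replicate 3, with the highest Slc51b value of the 8-week group (6.12 CPM), had a bile duct sum of 112 CPM. Replicate 2, at 3.71 CPM of Slc51b, had a bile duct sum of 480 CPM. Intestinal markers summed to 299 CPM in replicate 3, the highest sum of that group. Of the 5 intestinal genes listed, 4 stayed under 1 CPM in every 8-week liver. The part of either set of markers in the rise of Slc51b was not tested.

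The promoters of Abcb11 and Slc51b are shown because both genes are textbook targets of the bile acid receptor FXR (Nr1h4) and moved in opposite directions here. The 250 bases before the start of each gene come from RefSeq on GRCm38.p6, at chr2:69342617-69342866 and chr9:65422774-65423023, both on the minus strand, and capitals mark AGGTCA or its reverse complement TGACCT, the half-site that many nuclear receptors bind.
Abcb11: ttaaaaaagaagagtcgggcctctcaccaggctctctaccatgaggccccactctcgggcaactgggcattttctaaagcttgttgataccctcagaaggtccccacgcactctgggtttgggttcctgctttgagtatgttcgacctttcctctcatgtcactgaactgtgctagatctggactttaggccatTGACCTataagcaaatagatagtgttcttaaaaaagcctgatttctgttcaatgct
Slc51b: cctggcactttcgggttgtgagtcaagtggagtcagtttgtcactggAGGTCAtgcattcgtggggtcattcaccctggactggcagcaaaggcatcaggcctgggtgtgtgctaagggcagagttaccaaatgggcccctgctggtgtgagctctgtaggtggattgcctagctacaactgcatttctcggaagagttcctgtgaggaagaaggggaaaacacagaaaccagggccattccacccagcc
The match begins 56 bases before the RefSeq start in Abcb11, on the other strand, and 203 bases before it in Slc51b. In the GENCODE annotation used for gene symbols, Slc51b begins at 65422955, upstream of its RefSeq start. Part of its window thus lies within the annotated gene, and the match lies nearer to that annotated start than 203 bases. On either strand, AGGTCA occurs in 15 of 71 member windows of this length (21.1%), which belong to 13 of the 60 members with a window, and in 4607 of all 32851 windows (14%). The inverted repeat of this half-site with a spacer of 1 base is a form of the FXR element. Exact copies of it occur in 2 windows of all genes and in 0 of the members' windows. Inexact copies were not searched for, so these counts do not cover them. In the Abcb11 window the capitals are preceded, across a spacer of 1 base, by an inexact copy of the half-site in inverted orientation. Whether FXR binds there was not tested. A match describes these letters alone.

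Uptake and export members were also set side by side by the changes of single genes. At 8 weeks 4 of 22 tested uptake members rose and 7 fell, against 7 and 8 of 19 export members, while 30.8% of all genes tested rose and 20.5% fell. At 16 weeks 6 rose and 8 fell in the uptake class, against 8 and 8 in the export class, while 29.4% of all genes rose and 22.5% fell. The median log2 change of uptake members was −0.12 at 8 weeks and that of export members −0.36, a difference of 0.24. At 16 weeks the medians were −0.22 and −0.29, a difference of 0.07. These differences changed with the filter on low counts and with the libraries used. Among genes with a mean of at least 1 CPM over all livers, the difference was −0.09 at 8 weeks and −0.37 at 16 weeks, and with no filter on low counts it was 0.15 and 0.25. Without any 1 of the 5 chow livers it was 0.0535 to 0.13 at 8 weeks and −0.13 to −0.0496 at 16 weeks. In each of these fits 20 export members passed the filter, in place of 19, so the genes compared changed as well. Without the 5 libraries with squamous transcripts the difference was 0.0145 and −0.0111, with 21 uptake members in place of 22.

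Levels of different genes were set side by side per kilobase of exon, here the union of all annotated exons of a gene. Slc10a1 averaged 153 ± 45.2 CPM per kb at 8 weeks and 78.4 ± 24.5 CPM per kb at 16 weeks, against 257 ± 34.1 CPM per kb on chow. Slco1b2 averaged 158 ± 64.5 CPM per kb at 8 weeks and 149 ± 52.8 CPM per kb at 16 weeks, against 233 ± 31.4 CPM per kb on chow. The levels of this pair lay within their spread of each other on chow and at 8 weeks, and the mean of Slco1b2 was the higher at 16 weeks, a difference between genes that was not tested. Slco1a1 was below both, at 43.2 ± 17.1 CPM per kb at 8 weeks and 17.4 ± 14.9 CPM per kb at 16 weeks, against 119 ± 18.997 CPM per kb on chow. The levels of all export members summed to 313 ± 56.9 CPM per kb at 8 weeks and 272 ± 41.5 CPM per kb at 16 weeks, against 522 ± 59.9 CPM per kb on chow. Every CDA-HFD liver had a lower export sum than every chow liver. In the export sum Abcb11 led at both times and on chow, with 30.2% at 8 weeks and 27.9% at 16 weeks, against 34.3% on chow. The exon union was 9383 bases for Abcb4 and 5146 for Abcb11, whereas their longest coding transcripts hold 4079 and 5025 bases. The order of Abcb11 and Abcb4 on CDA-HFD therefore depends on the length used.

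A run of 5 organic anion carrier genes on chromosome 19 split into genes that rose and genes that fell. In the order of their coordinates (7781041 to 8405111 on the minus strand) these are Slc22a26, Slc22a27, Slc22a28, Slc22a29 and Slc22a30, rodent members of the organic anion carrier branch of the family. Slc22a28 had 1.25, 2.84 and 6.15 CPM (lowest, median, highest) at 8 weeks and 0.613, 1.18 and 4.25 CPM at 16 weeks, against 15.7, 21.8, 18.4, 24.1 and 12.8 CPM on chow. Slc22a30 had 49.01, 63.8 and 83.3 CPM at 8 weeks and 24.8, 37.8 and 53.5 CPM at 16 weeks, against 161, 190.5, 159, 192 and 139.7 CPM on chow. Both fell without overlap, by log2 changes of −2.49 ± 0.43 and −1.39 ± 0.17 at 8 weeks and −3.33 ± 0.43 and −2.10 ± 0.17 at 16 weeks (adjusted p between 5.04e-09 and 7.81e-05).

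The other genes of the run were scarce on chow and higher on CDA-HFD. Slc22a27 had 1.46, 2.92 and 7.70 CPM (lowest, median, highest) at 8 weeks and 2.15, 3.58 and 5.31 CPM at 16 weeks, against 0.1103, 0.430, 0.2698, 0.232 and 0.1096 CPM on chow. Its log2 changes were 4.003 ± 0.45 (adjusted p = 5.15e-07) and 3.96 ± 0.45 (adjusted p = 2.8e-07). Slc22a26 had a median of 1.81 CPM at 8 weeks and 1.82 CPM at 16 weeks, against 0.331 CPM on chow, with log2 changes of 2.99 (adjusted p = 9.08e-05) and 2.66 (adjusted p = 0.000175). Slc22a29 had medians of 0.997 and 0.848 CPM at these times, against 0.172 CPM on chow, with log2 changes of 2.91 (adjusted p = 0.000226) and 2.65 (adjusted p = 0.000356). None of these 3 genes overlapped chow at either time, although their chow levels rest on 38, 48 and 26 counts over 5 livers for Slc22a27, Slc22a26 and Slc22a29.

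**Figure D3:**
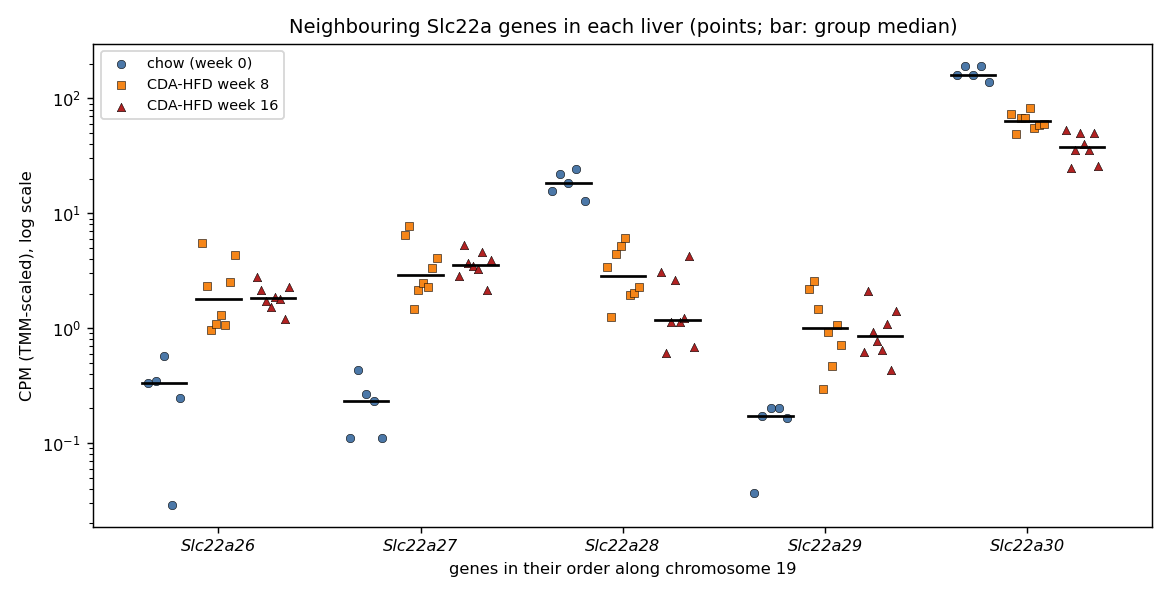
CPM (vertical axis, log scale) of 5 Slc22a genes in their order along chromosome 19, in each liver by diet and labelled week; bars are group medians. Slc22a28 and Slc22a30 of all CDA-HFD livers lie below all chow livers, and Slc22a26, Slc22a27 and Slc22a29 lie above them.

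The promoters of Slc22a28 and Slc22a30, which both fell, are 93% identical, and that of Slc22a29, which rose, is 63.9% and 62.7% identical to them. They are shown to set a shared stretch beside unlike changes, and come from RefSeq on GRCm38.p6, minus strand, as the 250 bases before each start at chr19:8131983-8132232, chr19:8405106-8405355 and chr19:8218901-8219150, with capitals for the longest run of 16 bases that all 3 share.
Slc22a28: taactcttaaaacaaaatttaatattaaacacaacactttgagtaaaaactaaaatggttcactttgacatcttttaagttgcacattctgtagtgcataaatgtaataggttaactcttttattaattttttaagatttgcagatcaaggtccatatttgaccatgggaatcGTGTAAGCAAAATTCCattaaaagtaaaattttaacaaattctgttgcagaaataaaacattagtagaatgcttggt
Slc22a30: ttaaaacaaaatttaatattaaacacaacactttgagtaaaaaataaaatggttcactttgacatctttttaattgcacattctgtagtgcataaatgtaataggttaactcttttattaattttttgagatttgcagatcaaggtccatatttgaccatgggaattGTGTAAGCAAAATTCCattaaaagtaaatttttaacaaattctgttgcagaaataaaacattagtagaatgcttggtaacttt
Slc22a29: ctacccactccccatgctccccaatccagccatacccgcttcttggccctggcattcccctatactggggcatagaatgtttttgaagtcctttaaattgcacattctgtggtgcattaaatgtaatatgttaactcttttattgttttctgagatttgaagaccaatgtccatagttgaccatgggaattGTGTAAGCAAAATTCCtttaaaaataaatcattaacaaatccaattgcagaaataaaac
Of these promoters none holds AGGTCA on either strand. That of Slc22a27 (chr19:7966028-7966277), which holds 1 match 119 bases before the start, is shown for comparison, with the match in capitals.
Slc22a27: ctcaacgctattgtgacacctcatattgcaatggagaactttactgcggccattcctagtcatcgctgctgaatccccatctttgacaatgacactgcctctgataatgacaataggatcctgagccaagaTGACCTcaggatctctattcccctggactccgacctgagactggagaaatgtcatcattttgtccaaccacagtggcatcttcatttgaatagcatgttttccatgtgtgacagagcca
The genes also share transcript sequence, which leaves the split of reads between them uncertain. Of the 50-base stretches of each transcript, 53.9% of Slc22a28, 35.9% of Slc22a30, 30.5% of Slc22a27, 30.5% of Slc22a29 and 5.88% of Slc22a26 also occur in other genes. The most frequent partner of Slc22a28 is Slc22a30, and that of Slc22a27 is Slc22a29.

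Further members with large changes lie outside the classical hepatocyte panel. Slco2a1, the prostaglandin carrier, had 28.4, 47.0 and 69.7 CPM (lowest, median, highest) at 8 weeks and 29.1, 36.5 and 45.2 CPM at 16 weeks, against 214, 193, 159, 254 and 174 CPM on chow. It fell without overlap, by −1.97 ± 0.18 (adjusted p = 4.16e-08) and −2.45 ± 0.18 (adjusted p = 1.57e-09). Slco3a1, a carrier of prostaglandins and thyroid hormone, averaged 12.3 ± 2.20 CPM at 8 weeks and 20.1 ± 3.49 CPM at 16 weeks, against 8.76 ± 2.48 CPM on chow (log2 changes 0.49 and 1.20, adjusted p = 0.0239 and 1e-05). Its call at 8 weeks was lost without chow replicate 1 (0.36, adjusted p = 0.0838) or 2 (0.44, adjusted p = 0.0678) and with the 2 groups fitted alone (0.42, adjusted p = 0.0878). Abcc5, a pump of cyclic nucleotides, averaged 17.7 ± 5.93 CPM at 8 weeks and 25.6 ± 5.56 CPM at 16 weeks, against 5.36 ± 0.844 CPM on chow, and Abcc12, a little-studied relative, 3.77 ± 1.78 and 4.34 ± 1.60 CPM, against 0.775 ± 0.259 CPM. Both rose without overlap, Abcc5 by 1.73 and 2.26 (adjusted p = 2.17e-06 and 4.77e-08) and Abcc12 by 2.28 and 2.48 (adjusted p = 3.99e-05 and 9.17e-06). Slc10a5, an orphan relative of the bile acid carriers, averaged 22.1 ± 16.1 CPM at 8 weeks and 25.4 ± 9.88 CPM at 16 weeks, against 89.6 ± 8.74 CPM on chow (log2 changes −2.01 and −1.82, adjusted p = 0.00276 and 0.00477). At 8 weeks replicates 2, 3 and 4 had 3.68, 2.85 and 5.03 CPM and the other 5 livers 24.6 to 41.0 CPM. With total-count scaling Slc10a5 at 16 weeks was at −1.29 (adjusted p = 0.0503).

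Mitochondrial ABC transporters did not move together. Abcb10, a transporter of the inner mitochondrial membrane needed for heme synthesis, had 18.4, 30.5 and 36.0 CPM (lowest, median, highest) at 8 weeks and 17.3, 25.1 and 29.5 CPM at 16 weeks, against 74.5, 81.6, 74.5, 86.4 and 73.9 CPM on chow. It fell without overlap, by −1.41 ± 0.14 (adjusted p = 7.96e-08) and −1.67 ± 0.14 (adjusted p = 4.39e-09). Abcb8, another transporter of that membrane, averaged 64.5 ± 35.3 CPM at 8 weeks and 43.5 ± 4.31 CPM at 16 weeks, against 43.3 ± 2.86 CPM on chow. Its call at 8 weeks (log2 change 0.58, adjusted p = 0.0403) was lost without any 1 of the 5 chow livers (adjusted p 0.0568 to 0.0782), with DESeq2 size factors (0.56, adjusted p = 0.0621), with the 2 groups fitted alone (0.51, adjusted p = 0.16) and without 8-week replicates 3, 4 and 5 (0.22, adjusted p = 0.0679). Replicate 3 held 151 CPM of Abcb8, and without it the change at 8 weeks was 0.26 (adjusted p = 0.019). Abcb6, a porphyrin transporter, averaged 9.46 ± 6.10 CPM at 8 weeks and 5.64 ± 0.990 CPM at 16 weeks, against 8.89 ± 0.495 CPM on chow. It was called lower at 16 weeks (log2 change −0.66, adjusted p = 0.0439), a call that held without 16-week replicate 3 and was lost in the other 12 of 13 fits with 1 library left out (adjusted p 0.0554 to 0.0781), and with total-count scaling (−0.13, adjusted p = 0.533). Of the 50-base stretches of Abcb6, 90.3% also lie in the overlapping transcript Gm29253.

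From 8 to 16 weeks of CDA-HFD fewer members changed. Of the 54 tested, 5 were higher and 9 lower at 16 weeks than at 8 weeks, against 10.6% and 11% of all genes tested, and 1 of them, Abcb1a, did not overlap between the groups, against 2.58% of all genes for higher values. The count of lower members was 3 without 16-week replicate 2 or 8, 4 without 8-week replicate 5 or 16-week replicate 5 or 6, and 5 without 16-week replicate 4. Abcb1a was higher by 1.58 ± 0.23 on the log2 scale (adjusted p = 9.4e-05), Slco3a1 by 0.70 (adjusted p = 0.00316) and Abcc4 by 0.58 (adjusted p = 0.0162). Slc22a7 was lower at 16 weeks by −1.42 ± 0.32 (adjusted p = 0.00392), with a lowest, median and highest value of 11.7, 19.3 and 32.0 CPM at 16 weeks, against 29.6, 53.3 and 109 CPM at 8 weeks. Slc10a1 was lower by −0.97 ± 0.20 (adjusted p = 0.00222) and Slc22a30 by −0.71 ± 0.16 (adjusted p = 0.00368), or by −0.31 with total-count scaling (adjusted p = 0.138). Abcc4 missed the threshold when 8-week replicates 3, 4 and 5 were left out (0.41, adjusted p = 0.0818). Slco1a1, at −1.31 (adjusted p = 0.0575), missed the threshold, and passed without 8-week replicate 2 (−1.43, adjusted p = 0.0473) or 3 (−1.37, adjusted p = 0.0456), without 16-week replicate 1 (−1.56, adjusted p = 0.035) or 7 (−1.59, adjusted p = 0.031), with DESeq2 (−1.31, adjusted p = 0.023), and without the 5 libraries with squamous transcripts (−2.61, adjusted p = 0.000788). Without those 5 libraries Slc22a28, at −0.85 with all livers (adjusted p = 0.114), was at −1.82 (adjusted p = 0.00112), and it also passed without 16-week replicate 7 (−1.15, adjusted p = 0.038).

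Other calls between 16 and 8 weeks were fragile. Slco2b1 (−0.47, adjusted p = 0.0264) was lost without 8-week replicate 5 or 16-week replicate 2 or 8 (adjusted p 0.0509 to 0.0602). Abcb6 (−0.73, adjusted p = 0.0334) was lost without 16-week replicate 1, 2, 5, 6 or 8 (adjusted p 0.0519 to 0.0704), and was at −0.38 without 8-week replicate 3 (adjusted p = 0.0375). Abcb8 (−0.57, adjusted p = 0.044) was lost without 8-week replicate 5 or any 16-week replicate other than 3 (adjusted p 0.0508 to 0.0832), and was at −0.25 without 8-week replicate 3 (adjusted p = 0.0214). Abcc5 (0.53, adjusted p = 0.0395) was lost without 8-week replicate 1, 2, 4 or 5 or 16-week replicate 1, 2, 5, 6 or 8 (adjusted p 0.0501 to 0.0946). Slco2a1 (−0.47, adjusted p = 0.043) was lost without 8-week replicate 1, 5 or 8 or any 16-week replicate other than 1 (adjusted p 0.0512 to 0.0843). Abcc3 (−0.29, adjusted p = 0.0469) kept its call without 8-week replicate 3, 6 or 7 or 16-week replicate 1 and lost it in the other 12 of 16 such fits (adjusted p 0.0552 to 0.0989). Slc22a18 (−0.70, adjusted p = 0.0468), an organic cation transporter-like gene of an imprinted region, kept its call without 8-week replicate 1, 6, 7 or 8 or 16-week replicate 3 and lost it in the other 11 (adjusted p 0.0528 to 0.0925), with −0.31 without 8-week replicate 3. With total-count scaling, where the median of all genes shifted by 0.38, Abcc3 turned to 0.11 (adjusted p = 0.518) and Abcb4, at −0.04 otherwise, to 0.38 (adjusted p = 0.0292).

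Of the remaining 17 tested members, 3 rose and 3 fell at 8 weeks, where 30.8% of all genes tested rose and 20.5% fell. At 16 weeks 5 rose and 3 fell, where 29.4% of all genes rose and 22.5% fell. Log2 changes of these members lay between −1.07 and 1.65 at 8 weeks and between −1.10 and 3.81 at 16 weeks. The largest of these values belonged to Slc22a12, the urate carrier of the kidney, which is named after its values were seen. Its highest value in any group was under 1 CPM, and 30.1% of its exon length overlaps Nrxn2 on the other strand. The other 21 members did not pass the filter. Of these, 5 had 0 counts in all livers, namely Abcb5, Slc22a13, Slc22a16, Slco6c1 and Slco6d1, and the renal organic anion carriers Slc22a6 and Slc22a8 had 9 and 22 counts over all 21 livers.

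Regulators and partners of the transporters were listed as 19 genes, all of which passed the filter. At 8 weeks 2 rose and 10 fell, with a median log2 change of −0.41, and at 16 weeks 2 rose and 12 fell, with a median of −0.78. Over all genes tested, 30.8% rose and 20.5% fell at 8 weeks and 29.4% rose and 22.5% fell at 16 weeks, with medians of 0.16 and 0.03. Nr1h4, which encodes the bile acid receptor FXR, averaged 80.8 ± 17.1 CPM at 8 weeks and 64.2 ± 12.6 CPM at 16 weeks, against 119 ± 7.94 CPM on chow (log2 changes −0.56 and −0.89, adjusted p = 0.00802 and 0.000104). Its target Nr0b2 (SHP), a corepressor, rose at 8 weeks (log2 change 0.86, adjusted p = 0.0172) and not at 16 weeks (0.05, adjusted p = 0.9). Hnf4a, a master regulator of hepatocyte genes, averaged 582 ± 108 CPM at 8 weeks and 488 ± 82.9 CPM at 16 weeks, against 1122 ± 117 CPM on chow (log2 changes −0.95 and −1.20, adjusted p = 1.4e-05 and 3.7e-07). The bile acid conjugating enzymes Slc27a5 and Baat fell by 0.87 and 0.66 on the log2 scale at 8 weeks and by 1.67 and 1.23 at 16 weeks. Ezr, an anchor of apical membrane proteins in bile duct cells, rose by 1.16 and 2.03 (adjusted p = 3.43e-06 and 2.32e-09), whereas Rdx, the anchor of canalicular proteins in hepatocytes, had log2 changes of −0.64 at both times (adjusted p = 0.0109 and 0.00901). Nfe2l2, the oxidative stress regulator NRF2, rose at 16 weeks (log2 change 0.65, adjusted p = 0.0133).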

How the data were processed

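RNA sequencing of total RNA from 21 whole mouse livers was deposited as raw counts per gene, made by the authors. Per the labels, libraries were stranded total RNA libraries, and per the submitters' processing notes the genome build was GRCm38. Neither an aligner, a counter nor a strand setting is named in the sources used here. Gene IDs were given symbols from GENCODE M21, which matched 52403 of 52636. The deposited sample files equalled the series table in 21 of 21 cases.

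Genes were filtered with filterByExpr (17104 kept, with 99.961% of counts), scaled by TMM and tested with edgeR 4.0.16 (quasi-likelihood, all 3 groups in 1 fit, R 4.3.3, Benjamini-Hochberg adjustment over all genes tested, threshold 0.05). The procedure was tested on simulated counts. CPM use TMM-adjusted library sizes, and sums over genes use CPM per kb of exon length. The named genes were a fixed panel by role, plus up to 5 further members per direction with the largest changes past the threshold and at least 0.5 CPM in the higher group. Of the members by the rule, 1 of the uptake class is not reported here and is left out of all member counts and medians, though it stayed in the fit across all genes, and no sum over the uptake class is given. Members, lists and alternatives were chosen with earlier results of these data known. Alternatives used DESeq2 1.42.0, other filters and scalings, and left-out libraries. Whether the livers of a group shared a cage or litter is not given in the labels, so p-values measure the spread between these samples. Both CDA-HFD comparisons share the 5 chow livers.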

Additional observations from a re-analysis of the deposited data

Results flagged for a closer look

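Of 111 groups of values of named members, 13 held a liver set apart from the others of its group by Dixon's test at the 95% level, which chance flags in about 1 in 20 groups. Of these, 5 were values of replicate 3 of the 8-week group, namely 567 CPM of Abcb4, 24.1 CPM of Abcb6, 151 CPM of Abcb8, 36.5 CPM of Abcg2 and 437 CPM of Slc22a18. This is the liver with the lowest TMM factor and the most squamous transcripts. A further 6 were values of chow replicate 1, namely 117 CPM of Abcg2, 145 CPM of Abcg5, 251 CPM of Abcg8, 0.0368 CPM of Slc22a29, 0.441 CPM of Slc51b and 111 CPM of Slco1a4. Abcc3 stood apart in replicate 1 of the 8-week group at 234 CPM and in replicate 1 of the 16-week group at 209 CPM.

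The change against chow differed between 16 and 8 weeks for 13 named members, in the same edgeR comparison of 16 with 8 weeks that is given above. It was higher at 16 weeks for Abcb1a (1.58 on the log2 scale), Abcc4 (0.58), Abcc5 (0.53) and Slco3a1 (0.70). It was lower at 16 weeks for Abcb6 (−0.73), Abcb8 (−0.57), Abcc3 (−0.29), Slc10a1 (−0.97), Slc22a18 (−0.70), Slc22a30 (−0.71), Slc22a7 (−1.42), Slco2a1 (−0.47) and Slco2b1 (−0.47). Over all genes tested, 21.6% were called in that comparison. Some of these members were named because they were called in it, so the count of 13 is partly fixed by the naming rule. Several of the calls were lost in some fits, as described above.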

How the results depend on the processing

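Of 2550 values of named members under all alternatives, 2308 kept their direction and their side of the threshold, 133 lost the call, 39 gained one and 70 changed sign. Of those 70, 2 were called in 1 of the 2 fits compared, namely Abcb4 (0.38) and Abcc3 (0.11) at 16 against 8 weeks with scaling by total counts alone. The other 68 were called in neither fit, 14 of them with total counts and 54 under other alternatives, and took values of −0.33 to 0.54. Scaling by total counts moved the median of all genes by 0.12, 0.53 and 0.38 in the comparisons of 8 weeks with chow, 16 weeks with chow and 16 with 8 weeks. Higher genes then made up 78.3%, 89.5% and 94.8% of calls, against 60.1%, 56.6% and 49% with TMM. Members called lower at 16 weeks against chow numbered 12 with it, against 22 with TMM.

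At 16 against 8 weeks, higher members numbered 11 with total counts, 3 with only the 2 groups fitted and 9 without the 5 libraries with squamous transcripts, against 5 with all livers. Lower members numbered 2 with total counts, 3 with no filter, 3 with only the 2 groups, 4 without 8-week replicates 3, 4 and 5, and 16 without the 5 libraries, against 9. With 1 library left out, the lower count ranged from 3 to 13. The uptake minus export difference of medians was −0.0937 at 8 weeks, −0.3677 at 16 weeks and −0.2968 at 16 against 8 weeks with a mean of at least 1 CPM, 0.15 and 0.25 at 8 and 16 weeks with no filter, and 0.0145 and −0.0111 without the 5 libraries. With 1 library left out it ranged from 0.0535 to 0.34 at 8 weeks and from −0.1348 to 0.0960 at 16 weeks. The fits without a chow liver held 20 export members, in place of 19. The cause of these shifts was not tested. No paired analysis was possible because the labels give no number shared between groups. Low counts limit Slc51b and 3 Slc22a genes on chow.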
